A study of Mus musculus with 9 samples.

Results

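Chromosome 19 of the mouse was described here through 354 of its 1063 genes in the counts table (47937 genes in all), as placed by the gene annotation. Each had a mean of at least 5 CPM (reads of the gene per 1000000 reads of the library) in the control cells. Genes whose symbols start with Ifit were left out by name, which removed 2 genes above that minimum. The chromosome was chosen by its readout: earlier results of these data had shown its genes at a higher RNA level in S1S2 than in WT. The S1S2 values are therefore a description: counts of calls stand beside the share over all genes, no p-value is given, and nothing is supported with them. Adjusted p-values are given only for G9Gl against WT.

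RNA was sequenced from mouse embryonic fibroblasts (MEFs) of 3 genotypes with 3 libraries each. WT cells were the parental line, which carries a conditional Eset1 (Setdb1) allele that was left intact. In S1S2 cells both Suv39h1 and Suv39h2 were knocked out, and in G9Gl cells both G9a (Ehmt2) and Glp (Ehmt1), each pair with CRISPR/Cas9 in that same parental line, so every group carries the conditional Eset1 allele. By the study's methods, each mutant genotype was 1 clone, chosen by the absence of the proteins on western blots, so genotype and clone cannot be told apart. The methods call the 3 libraries of a line biological replicates. They came from the same line, so the p-values measure the spread between samples of that line and not between independent clones or animals.

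Suv39h1 and Suv39h2 place H3K9me3, the trimethyl mark of lysine 9 on histone H3 that marks constitutive heterochromatin, and G9a and Glp act as a pair that places mainly H3K9me2 on silent chromatin along the chromosome arms. Both are lysine methyltransferases (KMTs). Chromosome 19 is the smallest mouse autosome and is rich in genes near its centromeric end. When a whole chromosome differs in copy number between cells, the RNA of most of its genes usually differs by a similar factor, while genes under strong regulation can depart from it. Only RNA was measured here. DNA copy number was not, so "dosage" names no more than the shared shift in RNA level, and whether the shift came with extra DNA was not tested.

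The libraries held between 21319778 and 32157623 counted reads. The transcripts of the 4 targeted genes were still present, with Suv39h1 at 38.2 to 44.0 CPM in S1S2 against 106 to 114 CPM in WT (CPM in this paragraph are by library total), and Suv39h2 at 52.6 to 56.8 CPM against 33.5 to 35.4 CPM. Ehmt1 lay at 48.3 to 51.9 CPM in G9Gl against 103 to 106 CPM in WT, and Ehmt2 at 51.6 to 57.5 CPM against 117 to 131 CPM. These RNA levels do not check the protein. The 8 fibroblast markers summed to between 10071 and 11273 CPM in WT, between 7292 and 7390 CPM in S1S2 and between 7737 and 8401 CPM in G9Gl, and none of them was at 0. In S1S2 all libraries lay below WT for 6 of the 8, among them Col1a2 (379.9 to 407 CPM against 2376 to 2487 CPM) and Col3a1, while Vim lay above (2279 to 2459 CPM against 1387 to 1533 CPM) and Fn1 overlapped. In G9Gl 7 lay below WT and Thy1 above it (36.6 to 40.4 CPM against 4.51 to 5.47 CPM). The 4 epithelial markers summed to at most 0.563 CPM in WT and to between 4.64 and 5.53 CPM in S1S2, of which Krt8 made 4.10 to 5.11 CPM with the other 3 under 1 CPM in every library. Summed levels were low for the rest, with the 3 endothelial markers between 0.124 and 0.199 CPM in WT, 1.55 and 1.68 CPM in S1S2 and 0.634 and 1.90 CPM in G9Gl, the 3 leukocyte markers between 3.19 and 4.61 CPM and the 2 pluripotency markers at 0.584 CPM or less. The 3 neural markers, of which 2 were under 1 CPM in every library, summed to between 37.6 and 42.0 CPM in S1S2, 24.4 and 26.5 CPM in WT and 17.2 and 25.5 CPM in G9Gl. The part of these markers in the results below was not tested. In bulk RNA, fewer cells of a type and less RNA per cell cannot be told apart.

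The promoters of 5 members show the kinds of gene that are met below. Acta2, the actin of smooth muscle and of contractile fibroblasts, was among the members farthest below the WT level in S1S2, and Ankrd1, a mechanically responsive nuclear and sarcomeric protein, was among the farthest above. Zfp518a, a zinc finger protein, was far below. Prdx3, the peroxiredoxin of mitochondria, and Cuedc2, a protein with a ubiquitin-binding CUE domain, lay at the chromosome's median. Each sequence runs 5′ to 3′ on the gene's own strand, from 250 bases before to 50 after the start, as RefSeq gives it for GRCm38.p6. The windows are chr19:34255324-34255623 (minus strand) for Acta2, chr19:36119795-36120094 (minus) for Ankrd1, chr19:40894455-40894754 (plus) for Zfp518a, chr19:60874489-60874788 (minus) for Prdx3 and chr19:46338611-46338910 (minus) for Cuedc2. Capitals mark TATAAA or TATATAA, which hold the core of a TATA box, and CArG boxes (the site of serum response factor) with at most 1 inner base other than A or T, on either strand.
Acta2: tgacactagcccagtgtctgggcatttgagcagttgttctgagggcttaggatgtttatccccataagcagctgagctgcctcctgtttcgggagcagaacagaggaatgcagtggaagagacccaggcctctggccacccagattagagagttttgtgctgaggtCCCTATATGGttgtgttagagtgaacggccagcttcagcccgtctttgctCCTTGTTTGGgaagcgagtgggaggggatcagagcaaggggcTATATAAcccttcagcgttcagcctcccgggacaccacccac
Ankrd1: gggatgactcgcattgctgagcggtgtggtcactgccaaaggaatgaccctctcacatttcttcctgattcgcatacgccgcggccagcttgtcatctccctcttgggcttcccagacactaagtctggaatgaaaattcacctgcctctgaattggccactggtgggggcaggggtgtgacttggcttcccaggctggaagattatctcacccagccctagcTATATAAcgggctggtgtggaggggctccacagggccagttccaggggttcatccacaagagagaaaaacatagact
Zfp518a: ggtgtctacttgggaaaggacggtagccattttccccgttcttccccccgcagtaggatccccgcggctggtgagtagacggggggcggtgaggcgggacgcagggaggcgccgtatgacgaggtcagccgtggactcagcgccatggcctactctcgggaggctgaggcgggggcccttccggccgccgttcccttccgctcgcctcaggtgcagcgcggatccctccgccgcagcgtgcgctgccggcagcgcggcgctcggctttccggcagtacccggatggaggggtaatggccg
Prdx3: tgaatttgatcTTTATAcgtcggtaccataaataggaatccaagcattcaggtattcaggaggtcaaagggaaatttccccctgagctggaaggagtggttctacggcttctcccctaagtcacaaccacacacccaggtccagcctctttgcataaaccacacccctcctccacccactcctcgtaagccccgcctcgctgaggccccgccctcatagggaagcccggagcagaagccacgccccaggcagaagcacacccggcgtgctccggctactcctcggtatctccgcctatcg
Cuedc2: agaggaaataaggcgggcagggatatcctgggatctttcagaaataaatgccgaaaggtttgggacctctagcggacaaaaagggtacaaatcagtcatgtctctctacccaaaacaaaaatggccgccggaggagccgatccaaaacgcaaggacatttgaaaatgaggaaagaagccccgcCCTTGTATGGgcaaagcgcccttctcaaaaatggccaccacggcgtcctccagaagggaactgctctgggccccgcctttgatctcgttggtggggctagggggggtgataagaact

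Acta2 and Ankrd1 both held TATATAA near the start, and with Stx3 they were the 3 members with that run among the 288 members for which the promoter table had an entry (3.24% of all 32851 promoters held it). The 32851 promoters leave out chromosome 18 and, unlike the members, were taken with no CPM minimum. Acta2 also held 2 relaxed CArG boxes. The Zfp518a window held neither motif and 35 CpG dinucleotides, against 6 for Acta2 and 7 for Ankrd1. A relaxed CArG box was in 9 of 40 promoters of members at or below the WT level in S1S2, in 21 of 208 of those near the median and in 3 of 40 of those above it, beside 9.98% of all promoters. The strict CArG box stood in 6 of the 288 (1.63% of all promoters), and TATAAA in 20 (13.6% of all). TCACCCCAC, a form of the sterol response element, and TGATGNAAT, the core of the amino acid response element, were in none of the 288, with 0.551% and 0.965% of all promoters holding them. The motifs were picked after the values had been seen, and a match describes letters only.

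The RNA of chromosome 19 was higher in S1S2 than in WT as a whole. The median log2 fold change over the 354 members was 0.31, a 1.24-fold difference, with the middle 50% of members between 0.13 and 0.49. The 3 S1S2 libraries gave medians of 0.32, 0.31 and 0.31 against the WT mean. In G9Gl the members lay to the other side, with a median of -0.17 and library medians of -0.18, -0.18 and -0.17. Over 9921 genes of the other chromosomes with the same CPM minimum, the medians were -0.01 in S1S2 and 0.00 in G9Gl.

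**Figure D1:**
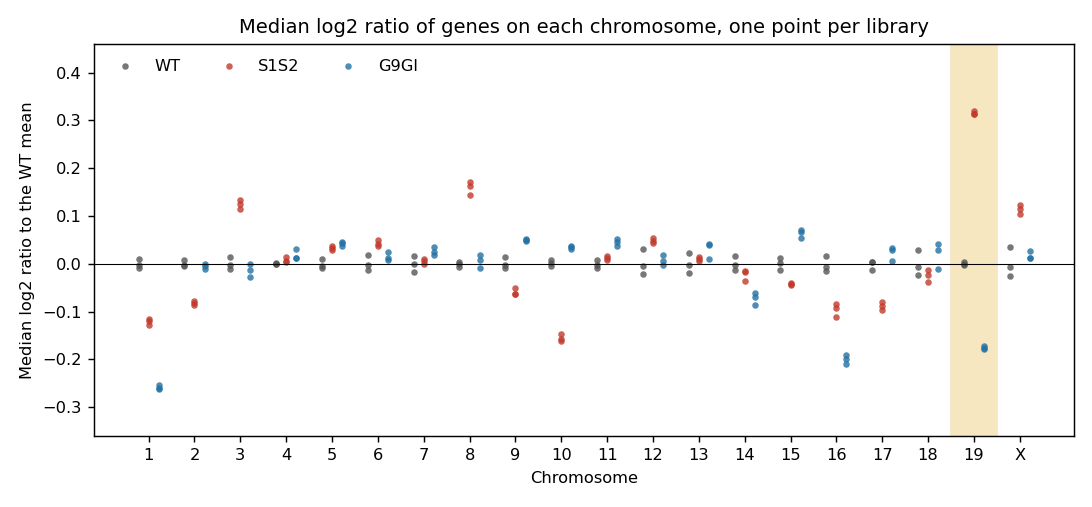
Median over genes of the log2 ratio to the WT mean (y axis) on each chromosome (x axis), with 1 point per library and chromosome 19 shaded. The 3 S1S2 libraries lie at 0.31 to 0.32 on chromosome 19, and the 3 G9Gl libraries at -0.18 to -0.17.

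Other chromosomes were shifted too, by smaller amounts in S1S2. Chromosome 8 had a median of 0.15, chromosome 3 of 0.13 and the X chromosome of 0.11 in S1S2, and chromosome 10 the lowest, -0.16. In G9Gl, chromosome 1 lay at -0.27 and chromosome 16 at -0.21, both lower than chromosome 19, while the next, chromosome 14, lay at -0.08. Of all reads counted, the members took 4.07 to 4.17% in WT, 5.18 to 5.23% in S1S2 and 3.68 to 3.76% in G9Gl. Ahnak alone, which encodes a giant scaffold protein of the membrane skeleton, took 0.506 to 0.525% in WT and 0.923 to 0.981% in S1S2. Without it the members' share was 3.55 to 3.66% in WT, 4.22 to 4.31% in S1S2 and 3.13 to 3.18% in G9Gl, so the 3 groups stayed apart.

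Of the 354 members, 306 (86.4%) lay above the WT level, where 48.1% of genes on the other chromosomes did. Their interquartile range was 0.36 on the log2 scale, beside 0.37 elsewhere. A level at least 1.5-fold above WT was found for 58 members (16.4%, against 5.11% elsewhere), and a difference of 2-fold or more in either direction for 13 (3.67%, against 4.14%). In edgeR's quasi-likelihood fit over all 15540 genes tested, 234 members were called higher in S1S2, with 20.3% of all genes called so, and 17 lower, with 17.6% of all genes. All 3 S1S2 libraries lay above all 3 WT libraries for 265 members (28.5% of all genes), and below them for 23 (27.5%). The rule used this contrast, so nothing is read from these counts.

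In G9Gl, which the choice of the chromosome did not use, 160 members (45.2%) fell at an adjusted p of at most 0.01 and 35 (9.89%) rose. Over all genes tested, 16% were called lower and 19% higher in G9Gl. The 3 G9Gl libraries lay below all WT libraries for 194 members (25.5% of all genes) and above them for 46 (27.3% of all genes). The WT libraries that set the CPM minimum are also the reference of this comparison, and of that with S1S2.

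**Figure D2:**
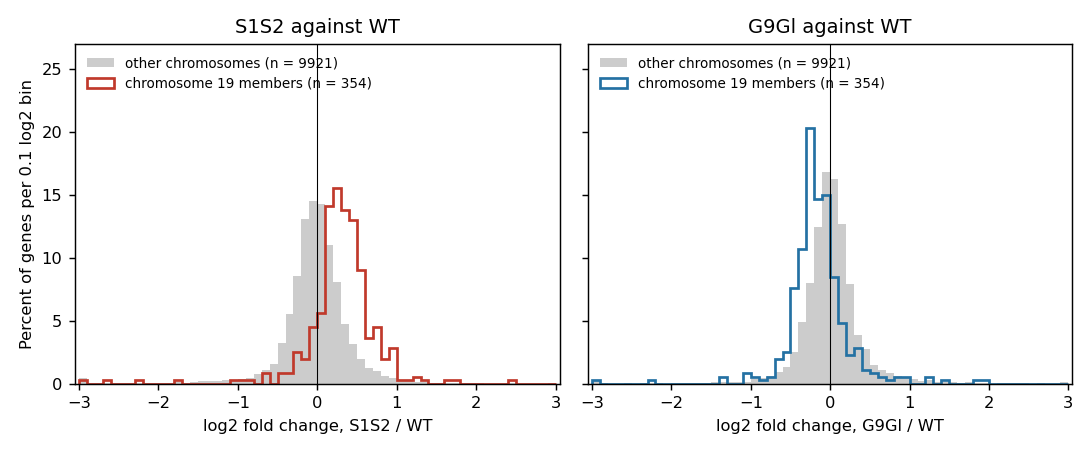
Percent of genes (y axis) in bins of 0.1 of the log2 fold change (x axis) for the 354 members (outline) and 9921 genes of other chromosomes (grey), with values beyond 3 drawn in the last bin. The outline sits to the right of the grey in S1S2, with medians of 0.31 and -0.01, and to the left in G9Gl, with medians of -0.17 and 0.00.

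To say which genes followed the shift, members were sorted by their distance from the S1S2 median of 0.31. Within 0.3 of it on the log2 scale lay 254 members (71.8%), below that band 48, and above it 52. On the other chromosomes, 69.5% of genes lay within 0.3 of their own median. Of the 306 members above the WT level, 41 had S1S2 libraries that overlapped WT, and the band holds some of these. Being within the band therefore does not show a rise for each gene. The 48 below the band were the same genes as those at or below the WT level. This match follows closely from the width chosen, since 0.3 below the median lies almost at the WT level. Of these 48, 23 had all 3 S1S2 libraries below all WT libraries and 25 overlapped WT. There were 11 members (3.11%) at 1 or more from the median, 7 below and 4 above. On the other chromosomes 4.12% of genes lay that far from their own median.

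The 5 members nearest the median with at least 50 CPM in WT were Cuedc2, Prdx3, Ndufv1, Fam111a and Fads3. Cuedc2 (chr19:46329812-46338702, minus strand) stood at 51.7, 49.8 and 48.5 CPM in WT, 61.8, 61.6 and 62.2 CPM in S1S2 and 49.9, 47.3 and 47.98 CPM in G9Gl. Its S1S2 libraries lay above the others, which overlapped. Prdx3 (chr19:60864051-60874556, minus strand) stood at 96.6, 92.99 and 100.2 CPM in WT, 124, 119 and 116 CPM in S1S2 and 95.5, 96.4 and 103 CPM in G9Gl. It showed the same order. Ndufv1, a subunit of complex I of the respiratory chain, gave 115, 122 and 114 CPM in WT, 142, 145 and 145 CPM in S1S2 and 109.5, 108 and 109 CPM in G9Gl. For this gene the 3 groups did not overlap, and the log2 fold change was 0.30 in S1S2 and -0.10 in G9Gl (adjusted p = 0.0495). Fam111a, a protease that restricts some viruses, lay at 0.31 in S1S2 and fell to -0.25 in G9Gl (adjusted p = 0.00054). It shares 13.5% of its 75-base windows with other genes. Fads3, a member of the fatty acid desaturase family, lay at 0.30 in S1S2 and rose by 0.39 ± 0.065 (SE) in G9Gl (adjusted p = 5.5e-05), with every G9Gl library above every WT library.

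Among the members with the most reads, Malat1, Scd2, Ddb1, Eif3a, Cfl1, Eef1g and Neat1 also lay within the band. Malat1, a nuclear non-coding RNA of the speckles, gave 4033, 3904 and 3883 CPM in WT, 4259, 4083 and 4325 CPM in S1S2 and 3074, 3257 and 2952 CPM in G9Gl. The difference from WT was 0.10 ± 0.03 (SE) in S1S2, so its libraries stood above WT by little, and -0.35 ± 0.045 (SE) in G9Gl (adjusted p = 9.2e-06). Neat1, the neighbouring RNA that builds paraspeckles, was at 0.37 in S1S2 and fell by 0.31 in G9Gl on the log2 scale. Scd2, a stearoyl-CoA desaturase, was at 0.15 and -0.43, and Ddb1, the adaptor of CUL4 ubiquitin ligases, at 0.24 and -0.23. Eif3a, a subunit of initiation factor 3, was at 0.18 and -0.26, and cofilin (Cfl1), which severs actin filaments, at 0.35 and -0.13. Cfl1 shares 16.5% of its 75-base windows with other genes. Eef1g, of elongation factor 1, was at 0.39 and -0.45. It shares 56.5% of its 75-base windows with other genes, so its reads may be split. Of the 10 members with the most reads, Ahnak and Myof lay above the band and Psat1 below it.

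The gene farthest below the median in S1S2 was Vldlr (chr19:27216484-27254231, plus strand), the very low density lipoprotein receptor. It gave 107, 84.4 and 153 CPM in WT, 7.86, 10.7 and 20.03 CPM in S1S2 and 89.6, 53.9 and 62.7 CPM in G9Gl. Its S1S2 libraries were all below WT, but its libraries varied widely within each group, and the G9Gl and WT libraries overlapped. The log2 fold change was -3.17 ± 0.47 (SE) in S1S2 and -0.74 ± 0.33 (SE) in G9Gl, where the adjusted p was 0.00945 in edgeR, 0.20 in DESeq2 and 0.010007 in edgeR with DESeq2 size factors. Without any 1 of WT replicates 1 and 3, S1S2 replicate 2 and G9Gl replicates 2 and 3 the edgeR call was lost too, with adjusted p-values between 0.013 and 0.052 and log2 fold changes between -0.79 and -0.47.

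Acta2 (chr19:34241090-34255590, minus strand) lay in opposite directions in the mutants. It gave 273, 279 and 248 CPM in WT, 43.7, 41.7 and 39.1 CPM in S1S2 and 1004, 1023 and 1092 CPM in G9Gl. All S1S2 libraries were at 43.7 CPM or less and all G9Gl libraries 1004 CPM or more, with no overlap between any groups. The S1S2 difference was -2.68 ± 0.07 (SE), and in G9Gl the gene rose by 1.96 ± 0.064 (SE) with an adjusted p of 5.7e-15. Myrf (chr19:10208272-10240748, minus strand), a membrane-bound transcription factor known for its role in myelination, had the same order at a lower level, with 13.1, 12.7 and 12.2 CPM in WT, 2.80, 2.51 and 2.59 CPM in S1S2 and 41.3, 47.02 and 46.1 CPM in G9Gl. It lay at -2.27 ± 0.054 (SE) in S1S2 and rose by 1.82 ± 0.065 (SE) in G9Gl (adjusted p = 5.4e-13). Zfp518a (chr19:40894705-40917947, plus strand) gave 58.3, 55.4 and 67.6 CPM in WT, 18.5, 17.9 and 18.95 CPM in S1S2 and 78.5, 75.1 and 77.4 CPM in G9Gl. Its S1S2 difference was -1.71 ± 0.089 (SE) and its rise in G9Gl smaller, 0.35 ± 0.088 (SE) (adjusted p = 0.00015).

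The other members far below were low in both mutants. Smarca2 (chr19:26605050-26778322, plus strand), which encodes BRM, an ATPase of the SWI/SNF chromatin remodelling complex, gave 7.88, 8.46 and 9.12 CPM in WT, 4.14, 4.12 and 5.17 CPM in S1S2 and 0.0351, 0.108 and 0.0326 CPM in G9Gl. The G9Gl libraries held 1, 3 and 1 reads of this gene, where the WT libraries held 256, 256 and 283. The log2 fold change was -0.93 ± 0.12 (SE) in S1S2 and -7.10 ± 0.26 (SE) in G9Gl (adjusted p = 5.7e-13), and the size of the latter rests on those 5 reads. Rab3il1 (chr19:10001669-10038380, plus strand), an exchange factor for Rab GTPases, gave 29.04, 30.3 and 29.8 CPM in WT, 16.5, 15.2 and 18.1 CPM in S1S2 and 15.9, 15.7 and 15.8 CPM in G9Gl. Its S1S2 and G9Gl libraries overlapped each other, and both were below WT, at -0.84 ± 0.075 (SE) and -0.91 ± 0.019 (SE) (adjusted p in G9Gl = 4.9e-09). Bbs1 (chr19:4886878-4906628, minus strand), a subunit of the BBSome that moves cargo in cilia, gave 14.3, 13.9 and 16.5 CPM in WT, 7.35, 6.52 and 7.29 CPM in S1S2 and 9.34, 10.5 and 9.17 CPM in G9Gl. It lay at -1.08 ± 0.095 (SE) in S1S2 and fell to -0.62 ± 0.099 (SE) in G9Gl (adjusted p = 3e-05). Myrf, Smarca2, Bbs1 and Glis3 are outside the rule for named genes, because their WT level was under 20 CPM, and were picked after their values had been seen.

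The 4 members far above the median were Dusp5, Ankrd1, Glis3 and Loxl4, and each also rose in G9Gl. Dusp5 (chr19:53529109-53542431, plus strand), a phosphatase that inactivates ERK in the nucleus, gave 5.54, 5.42 and 4.74 CPM in WT, 30.3, 29.7 and 26.9 CPM in S1S2 and 9.34, 9.45 and 9.79 CPM in G9Gl. Its 3 groups did not overlap, and it lay at 2.47 ± 0.087 (SE) in S1S2 and 0.86 ± 0.072 (SE) in G9Gl (adjusted p = 5.9e-07), with 22.1% of its exons overlapped by a gene on the other strand. Ankrd1 (chr19:36111961-36120099, minus strand) gave 91.3, 87.01 and 81.5 CPM in WT, 299, 302 and 276 CPM in S1S2 and 229.6, 233 and 247 CPM in G9Gl. Both mutants were above WT, by 1.75 ± 0.063 (SE) in S1S2 and 1.45 ± 0.057 (SE) in G9Gl (adjusted p = 2.1e-13). Loxl4 (chr19:42593982-42612813, minus strand), a lysyl oxidase that crosslinks collagen, gave 35.8, 34.05 and 39.99 CPM in WT, 88.3, 96.7 and 97.4 CPM in S1S2 and 71.6, 64.6 and 68.1 CPM in G9Gl. Its differences were 1.36 ± 0.082 (SE) and 0.89 ± 0.081 (SE) (adjusted p = 2.3e-09). Glis3 (chr19:28258851-28680077, minus strand), a zinc finger transcription factor, gave 6.34, 7.90 and 7.41 CPM in WT, 23.7, 25.1 and 20.6 CPM in S1S2 and 10.9, 12.8 and 12.5 CPM in G9Gl. Its differences were 1.69 ± 0.13 (SE) and 0.74 ± 0.12 (SE) (adjusted p = 1.4e-05).

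**Figure D3:**
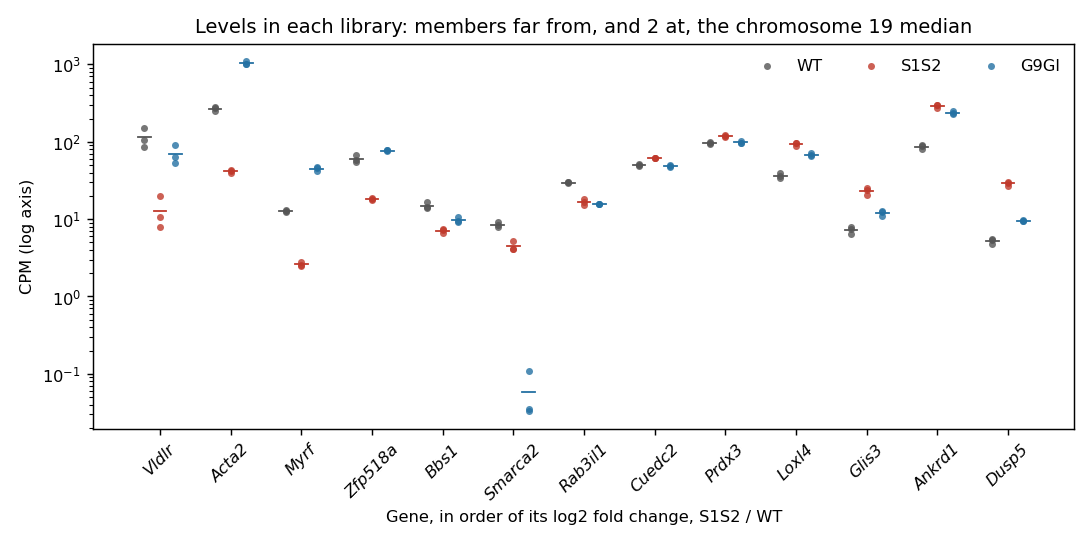
CPM on a log axis (y axis) of the 11 members 1 or more from the S1S2 median, and of Cuedc2 and Prdx3 at the median, with 1 point per library and a bar at the mean of 3. Acta2, Myrf and Zfp518a lie below WT in S1S2 and above it in G9Gl, and Smarca2 in G9Gl lies at 0.108 CPM or less.

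By the rule, 3 more members were among the 5 farthest above the median with at least 20 CPM in WT. Rps6ka4 (MSK2), a kinase downstream of MAP kinases, stood at 61.5 ± 6.01 CPM (SD, n = 3) in WT and 126 ± 1.10 CPM (SD, n = 3) in S1S2, at 1.03 in S1S2 and -0.07 in G9Gl. It shares 19.1% of its 75-base windows with another gene. Afap1l2, an adaptor of Src signalling, was at 0.98 and 0.09. Myof, which encodes myoferlin, a ferlin of membrane repair, gave 483, 499.5 and 475 CPM in WT, 931, 961 and 955 CPM in S1S2 and 426, 438 and 453 CPM in G9Gl. Its S1S2 libraries stood well apart from WT, at 0.97 ± 0.026 (SE). In G9Gl the difference was -0.15 ± 0.033 (SE) with an adjusted p of 0.00685, and this call was lost in the fit of WT and G9Gl alone (adjusted p = 0.017), with a replicate block (0.0105) and without any 1 of WT replicates 1 and 2, S1S2 replicates 1 and 2 and G9Gl replicates 1 and 2, where the adjusted p lay between 0.011 and 0.040. Ahnak gave 5005, 5260.1 and 4992 CPM in WT, 9720.4, 9861 and 9251 CPM in S1S2 and 5366, 5527 and 5895 CPM in G9Gl, so that the most abundant member was at 0.92 in S1S2 and at 0.14 in G9Gl (adjusted p = 0.0296).

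By position, every 5-Mb window along the chromosome had a positive median in S1S2 and a negative one in G9Gl. The S1S2 median was highest in the first window with members, 0 to 5 Mb, at 0.44 (42 members), and was 0.35 between 5 and 10 Mb, where 106 members lie. It was lowest between 20 and 25 Mb (0.17, 11 members) and between 10 and 15 Mb (0.17, 27 members), and was 0.33 between 40 and 45 Mb (39 members). The window from 10 to 15 Mb held 8 members at or below the WT level of its 27, and that from 5 to 10 Mb held 5 of 106. Over all members the share was 13.6%. It was highest between 50 and 55 Mb, at 3 of 9 members (33.3%), and was 27.3% between 15 and 20 Mb. In G9Gl the windows ranged from -0.34 between 50 and 55 Mb (9 members) to -0.04 between 20 and 25 Mb (11 members). The strand made little difference, with S1S2 medians of 0.32 on the minus strand and 0.30 on the plus strand.

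**Figure D4:**
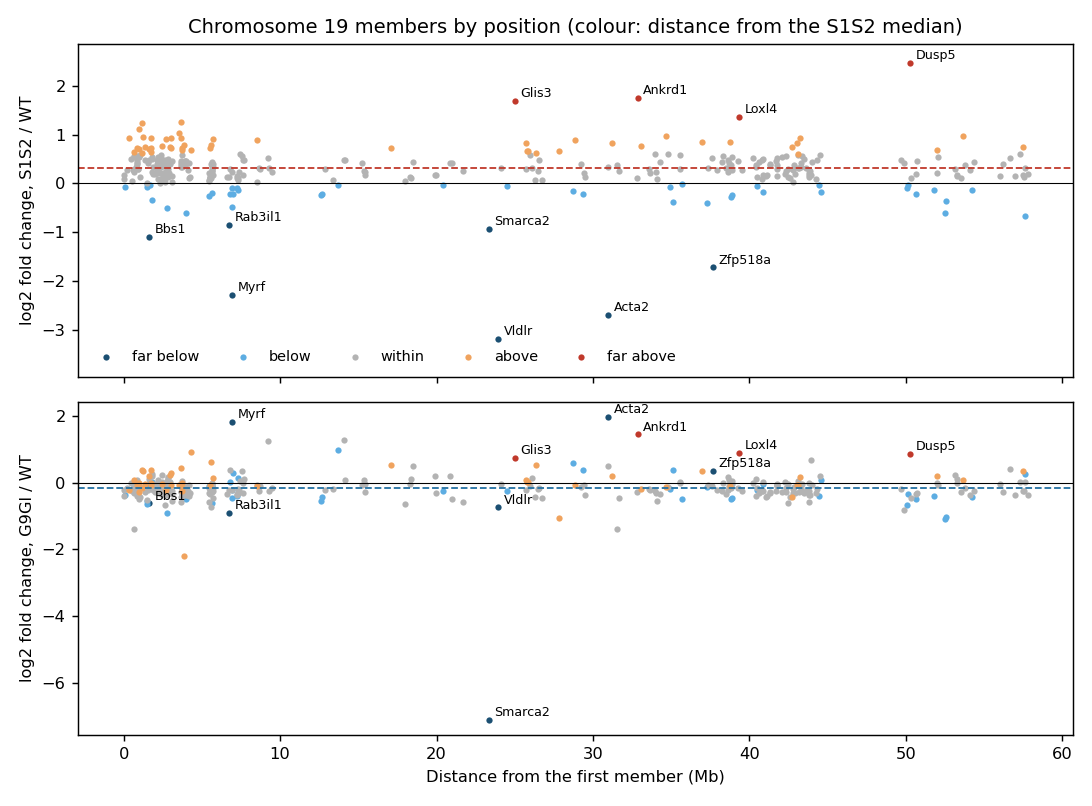
The log2 fold change of each of the 354 members (y axis) by its distance from the first member in Mb (x axis), for S1S2 (top) and G9Gl (bottom), coloured by the distance from the S1S2 median, with a dashed line at the median of each panel. Most points lie on 1 side of 0 along the whole chromosome, above it in S1S2 and below it in G9Gl.

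The members around the far members varied. The 6 nearest members around Acta2, 3 on each side, had an S1S2 median of 0.30, and 5 of them were within the band. Stambpl1, whose gene starts 48.9 kb away, was at 0.33, and Lipa, the lysosomal acid lipase, was above the band at 0.83. The neighbours of Zfp518a had a median of 0.38, those of Ankrd1 0.28 and those of Loxl4 0.33, with 5 of 6 within the band each time. Of the 6 neighbours, 4 were within the band around Smarca2, 3 around Dusp5, Myrf, Rab3il1 and Vldlr, and 2 around Bbs1 and Glis3. Around Dusp5 the neighbours' median was 0.04, and 3 of the 6 were below the band. The median was 0.01 around Myrf, 0.13 around Rab3il1 and 0.44 around Bbs1. Smarca2 and Vldlr were next to each other among the members, 611 kb between their starts, and Pum3 beyond Vldlr was at 0.32. Glis3, 1042 kb past Vldlr, was far above, and Rfx3 between them was at -0.05.

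Several members at or below the WT level lay around the fatty acid desaturase genes, between Rab3il1 and Dagla. In genome order the members there were Rab3il1 (-0.84 in S1S2), Fads3 (0.30), Fads2 (-0.22), Fads1 (-0.47), Fen1 (0.24), Tmem258 (-0.09), Myrf (-2.27) and Dagla (-0.22), of which 6 were at or below the WT level. Fads1, the delta5 desaturase of polyunsaturated fatty acids, gave 298, 289 and 311 CPM in WT, 213, 214 and 220.1 CPM in S1S2 and 251, 253 and 272 CPM in G9Gl. Its S1S2 libraries were below all others, and it fell to -0.21 ± 0.048 (SE) in G9Gl (adjusted p = 0.00062). Fads2, the delta6 desaturase, gave 132, 128 and 114 CPM in WT, 108, 109 and 103 CPM in S1S2 and 116, 135 and 129 CPM in G9Gl. Its S1S2 libraries were below WT and its G9Gl libraries overlapped it. Fen1, the flap endonuclease of DNA replication, was higher in every S1S2 library than in WT, but 84.2% of its exons are overlapped on the other strand and 80.0% of its 75-base windows are shared, so its reads may belong to its neighbours. This stretch was picked after its values had been seen. Fads3 within it followed the shift, as did the reads counted for Fen1. No unbroken run of members at or below the WT level held more than 3 genes anywhere on the chromosome. There were 8 runs of at least 2. Only Fen1 stands between the run of Fads2 and Fads1 and that of Tmem258, Myrf and Dagla. The limit of 3 genes therefore rests on the reads counted for Fen1.

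Level, length and type of gene were described beside the shift. Split into 3 equal sets of 118 by WT reads, the members with the fewest had an S1S2 median of 0.37 with 61.9% within the band, and those with the most 0.27 with 80.5%. By transcript length the medians of 3 such sets were 0.34, 0.32 and 0.28, from short to long. By the number of CpG dinucleotides in the promoter, for 96 members per set, they were 0.25, 0.37 and 0.28, from few to many, and 19 of 96 members in the lowest set were at or below the WT level, against 8 and 13 in the others. The promoters of members below the band held a median of 19 CpG, those within it 24 and those above it 21. The median was 7 for all promoters, but these were taken with no CPM minimum, so the sets are unlike. The 8 members that the annotation types as other than protein-coding had a median of 0.03 in S1S2 and -0.48 in G9Gl. Among them were Malat1, Neat1, Snhg1, Tmem134 and Gm37206. In G9Gl 7 of the 8 were called lower, beside 45.2% of all members and 16% of all genes. All 75-base windows of Gm37206 are shared with Rbm4b.

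Members were also described by 11 function lists, of 5 to 29 members each, and differences between lists were not tested. Of all members, 71.8% lay within the band. Medians are given for S1S2 first and then for G9Gl, beside 0.31 and -0.17 over all members and -0.01 and 0.00 over the other chromosomes, and calls in G9Gl are beside the 19% higher and 16% lower of all genes. The 24 members for DNA replication, repair and cell division had 22 within the band, 2 below, none above, and medians of 0.24 and -0.24. Cep55, which acts at the last step of cell division, was highest at 0.60, and Cep78, a centrosomal protein, lowest at -0.22. In G9Gl 16 of the 24 fell and none rose. Among these 24, Kif11, Incenp, Smc3 and Cdca5 act in mitosis and sister chromatid cohesion, and all 4 lay within the band. Being within it did not always mean a clear rise, as the S1S2 libraries of Incenp (0.14) overlapped WT.

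The 22 members for RNA processing and export had an S1S2 median of 0.18, with 18 within the band, 3 below and 1 above, and in G9Gl 17 of them fell and none rose (median -0.26). Polr2g, a subunit of RNA polymerase II, was highest at 0.73. Rbm4, a splicing regulator, was lowest at -0.08 and fell to -0.63 in G9Gl (adjusted p = 3.7e-07), and 62.3% of its 75-base windows are shared with other genes. Of the 17 members for translation and ribosome assembly 14 were within the band, with medians of 0.29 and -0.17, and 7 fell in G9Gl. Pdcd4, an inhibitor of translation initiation, gave 30.7, 30.2 and 33.5 CPM in WT, 26.2, 25.3 and 30.1 CPM in S1S2 and 22.7, 24.4 and 19.8 CPM in G9Gl. Its S1S2 and G9Gl libraries lay below WT, and it fell by 0.50 in G9Gl on the log2 scale (adjusted p = 6.1e-05). Rcl1, which processes ribosomal RNA, was at 0.66 and 0.03.

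Of the 29 chromatin and transcription factors, 19 were within the band, 6 below and 4 above, with medians of 0.21 and -0.25, and 19 fell and 2 rose in G9Gl. Those below were Smarca2, Zfp518a, Hells, Rfx3, Mxi1 and Tcf7l2. Hells, a remodeller needed for DNA methylation of repeats, gave 287, 282 and 296 CPM in WT, 275, 296 and 288 CPM in S1S2 and 211, 210.3 and 197 CPM in G9Gl. Its S1S2 and WT libraries overlapped, and it fell to -0.49 ± 0.039 (SE) in G9Gl (adjusted p = 5e-08). Tcf7l2, a transcription factor of Wnt signalling, gave 31.5, 34.2 and 28.3 CPM in WT, 22.2, 19.2 and 20.2 CPM in S1S2 and 14.6, 15.4 and 14.1 CPM in G9Gl. All groups were apart, in the order WT, S1S2, G9Gl, with -0.61 ± 0.1 (SE) in S1S2 and -1.09 ± 0.087 (SE) in G9Gl (adjusted p = 3.5e-09). Esrra, a nuclear receptor that drives mitochondrial genes, was the highest of the list at 1.25 and rose by 0.45 ± 0.045 (SE) in G9Gl (adjusted p = 0.00013).

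The 25 members with mitochondrial function had medians of 0.24 and -0.12, and 18 were within the band. Prdx5, a peroxiredoxin, was highest at 0.93, with 19.1% of its exons overlapped on the other strand. Sfxn4, of the sideroflexin family of mitochondrial carriers, was lowest at -0.66 ± 0.12 (SE), with 4.83, 5.62 and 5.22 CPM in WT, 2.90, 3.32 and 3.72 CPM in S1S2 and 6.77, 6.07 and 5.88 CPM in G9Gl. Aldh18a1, which makes the proline precursor from glutamate, gave 334, 320.4 and 366 CPM in WT, 224, 239 and 306 CPM in S1S2 and 335, 294 and 308 CPM in G9Gl. Its S1S2 libraries were below WT and spread over a wide range. In G9Gl 8 of the 25 fell and none rose. Psat1, of serine synthesis, was the lowest of the 13 redox and xenobiotic enzymes at -0.23, with S1S2 libraries that overlapped WT through replicate 3, without which it lay at -0.35, and fell to -0.56 ± 0.11 (SE) in G9Gl (adjusted p = 3.2e-05). Dpp3, a dipeptidyl peptidase, was highest at 0.71. Of the 13, 10 were within the band, the medians were 0.38 and -0.23, and 8 fell and 1 rose in G9Gl. This list is mixed and also holds Stip1, Pgam1, Got1, Nt5c2 and Xpnpep1. Its medians are therefore not those of redox and xenobiotic enzymes alone.

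Lipid metabolism had 11 of 23 members within the band, with 7 below, 5 above and medians of 0.29 and -0.15. Below were Vldlr, Fads1, Fads2, Dagla, Tm7sf2, Asah2 and Gpam. Above were Sgms1, Lipa, Pitpnm1, Pla2g16 and Acsl5. Sgms1, which makes sphingomyelin, gave 39.8, 40.3 and 37.2 CPM in WT, 74.9, 75.5 and 67.01 CPM in S1S2 and 35.1, 41.1 and 35.8 CPM in G9Gl. Its S1S2 libraries lay above all others, at 0.89 ± 0.066 (SE), and its G9Gl libraries overlapped WT. In G9Gl 10 of the 23 fell and 4 rose.

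The 26 members of cytoskeleton, adhesion and matrix had a median of 0.47 in S1S2 and -0.02 in G9Gl, with 14 within the band, 10 above and 2 below. Above were Ankrd1, Loxl4, Myof, Afap1l2, Ahnak, Anxa1, Pdlim1, Capn1, Ssh3 and Actr1a. Below were Acta2 and Cd248, the latter the stromal glycoprotein endosialin. In G9Gl 7 of the 26 rose and 6 fell, among them Acta2 and Ankrd1 up and Add3, an adducin of the spectrin skeleton, down. The 26 members of growth and survival signalling had an S1S2 median of 0.53, with 18 within the band, 8 above and none below. Dusp5 was the highest and Chuk (IKK-alpha) the lowest, at 0.08. Ppp1ca, a catalytic subunit of protein phosphatase 1, gave 379.9, 383 and 390.1 CPM in WT, 559, 561 and 550.4 CPM in S1S2 and 355, 343 and 368 CPM in G9Gl. It shares 16.5% of its 75-base windows with other genes. Its S1S2 libraries were apart from the rest, at 0.53 ± 0.014 (SE), while in G9Gl it was at -0.11 (adjusted p = 0.0247). The list's G9Gl median was -0.22, and 12 fell and 5 rose.

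The 23 members of vesicle traffic and lysosome had medians of 0.38 and -0.17, with 19 within the band, and 10 fell and 2 rose in G9Gl. Stx3, a syntaxin of the plasma membrane, was highest at 0.88 ± 0.026 (SE) in S1S2, with 16.6, 16.4 and 17.2 CPM in WT, 30.8, 30.3 and 31.5 CPM in S1S2 and 14.9, 15.9 and 15.8 CPM in G9Gl. Tm9sf3, the most abundant of them, was at 0.27 and -0.23. The 5 innate immune members other than Ifit genes had medians of 0.55 and -0.03, none below the band, and 1 fell in G9Gl. Trim8, a ubiquitin ligase, was highest at 0.92 and stood at 0.16 in G9Gl (adjusted p = 0.0285). The 121 members in no list had medians of 0.33 and -0.14, with 88 within the band, 18 below and 15 above, and in G9Gl 46 fell and 14 rose.

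**Figure D5:**
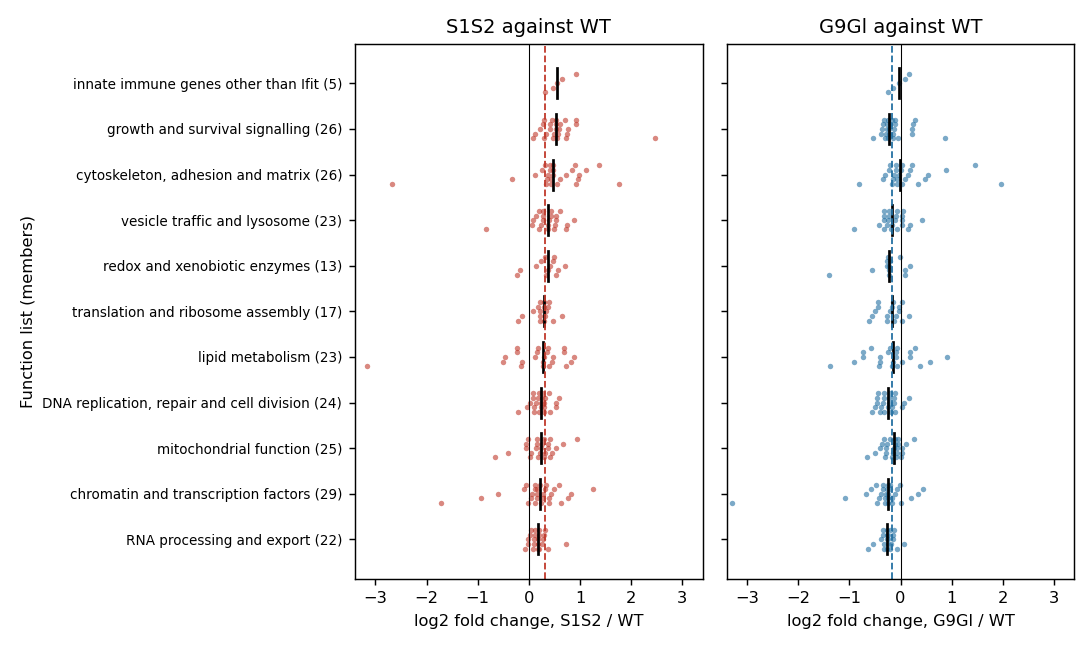
The log2 fold change (x axis) of members of 11 function lists (y axis, with the number of members), for S1S2 (left) and G9Gl (right). Points are genes, with values beyond 3.3 drawn at 3.3, black bars the list medians and dashed lines the medians of all members, and the list medians run from 0.18 to 0.55 in S1S2.

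In G9Gl, 12 members (3.39%) differed from WT by 2-fold or more, beside 3.67% of genes on the other chromosomes, and all 12 were called, 7 lower and 5 higher. Lower beside Smarca2 were Flrt1, a membrane protein with leucine-rich repeats (-2.20 in G9Gl, 0.80 in S1S2), Aldh3b1 (-1.39 and 0.57), Pank1, of coenzyme A synthesis (-1.38 and 0.39), Tcf7l2, Cstf2t (-1.06 and 0.66) and Ppnr, a non-coding RNA that lies inside Tcf7l2 (-1.03 and -0.36). Cstf2t, a cleavage factor of messenger RNA 3′ ends, gave 64.8, 62.7 and 66.4 CPM in WT, 98.6, 100.1 and 108 CPM in S1S2 and 32.2, 31.03 and 29.9 CPM in G9Gl. Its 3 groups were apart, with S1S2 above and G9Gl below WT (adjusted p in G9Gl = 1.9e-11). Add3 gave 45.4, 43.7 and 44.99 CPM in WT, 60.8, 58.8 and 60.4 CPM in S1S2 and 25.9, 25.4 and 25.4 CPM in G9Gl, again with 3 separate groups, and fell to -0.81 ± 0.019 (SE) in G9Gl (adjusted p = 3.6e-10). Higher beside Acta2, Myrf and Ankrd1 were Gcnt1, which branches O-glycans, and Dtx4, a ubiquitin ligase of Notch signalling. Gcnt1 gave 20.03, 20.1 and 20.8 CPM in WT, 27.6, 29.7 and 27.04 CPM in S1S2 and 46.96, 51.00 and 50.7 CPM in G9Gl, and Dtx4 gave 21.04, 21.8 and 21.9 CPM in WT, 30.9, 29.7 and 32.1 CPM in S1S2 and 50.5, 51.1 and 51.9 CPM in G9Gl. Both were within the band in S1S2, at 0.47 and 0.51, and rose by 1.29 ± 0.041 (SE) and 1.24 ± 0.022 (SE) in G9Gl (adjusted p = 6.1e-12 and 2.7e-12). Prune2 rose by 0.96 ± 0.16 (SE) in G9Gl (adjusted p = 3.9e-07), while its S1S2 libraries overlapped WT at -0.03. Flrt1, Aldh3b1, Pank1 and Ppnr were picked after their values had been seen.

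At the CPM minimum, the members just inside were Cutc (mean WT level 5.12 CPM by library total), Sfxn4 (5.29) and Dusp5 (5.29), which lay at -0.06, -0.66 and 2.47 in S1S2 on the log2 scale. Just outside were Borcs7 (4.86 CPM), Tle4 (4.80) and Asrgl1 (4.76), with 0.38, -1.38 and -0.03 in S1S2 and -0.06, 0.86 and 0.09 in G9Gl. Under the minimum, Ifit genes aside, 128 genes of the chromosome had enough reads to be tested. Their S1S2 median was 0.43 and 92 of them lay above 0, and their G9Gl median was -0.11. All 354 members had passed the filter on low counts.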

How the data were processed

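RNA was sequenced from 9 libraries (3 genotypes, 3 libraries each). By the study's methods the authors made ribosome-depleted stranded libraries, sequenced them as 75 bp paired-end reads, trimmed adapters, ran STAR 2.5.2b (the version also in the submitters' processing notes) on the GRCm38 genome and counted reads per gene with TEtranscripts, which also places reads that map to several sites. The study shows no RNA-seq of S1S2 or G9Gl cells, and its methods also name gene counts from snakePipes. Whether the counts used here came from TEtranscripts is therefore not stated. The values the authors deposited are raw counts per gene. The annotation release and the strand setting of the counting are not given in the sources used here, so reads of overlapping genes on opposite strands cannot be told apart. Library totals were 21319778 to 32157623 counts.

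Positions came from GENCODE M21 (GRCm38), which matched 47310 of 47937 gene IDs (627 did not match), and promoters from RefSeq. Reads were tested in R 4.3.3 with edgeR 4.0.16 (filterByExpr, TMM scaling, glmQLFit and glmQLFTest over all 9 libraries, 15540 genes tested, Benjamini-Hochberg adjustment over all of them, called at an adjusted p of at most 0.01 with no fold limit). CPM printed for members are TMM-scaled, while those of marker, targeted and Ifit genes and the CPM minimum of 5 used library totals. Standard errors come from the spread of log2 CPM with a prior count of 2. The script was tested on simulated data. A chi-square comparison of replicate libraries gave 2.57 to 23.5 per degree of freedom, so none was counted as a duplicate. Alternatives were DESeq2 1.42.0, other scalings, filters, minimums and thresholds, a replicate block and leaving out each library. Members, lists and tests were chosen with earlier results of these data known. Genes were named by rule: the 5 farthest above and below the S1S2 median with a WT level of at least 20 CPM, the 5 nearest with at least 50 CPM, the 5 largest rises and falls called in G9Gl with at least 20 CPM, per list the most abundant, highest and lowest, 3 on each side of the minimum, and the 10 with the most reads.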

Additional observations from a re-analysis of the deposited data

Results flagged for a closer look

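The median of the chromosome 19 members lay on opposite sides of WT in all 3 S1S2 and all 3 G9Gl libraries, and the G9Gl median minus the S1S2 median was -0.48 on the log2 scale. Both medians share the WT libraries, and the difference was not tested.

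Some named members likewise had every library of one mutant above all WT libraries and every library of the other below them. Named members were picked mainly for extreme values or many reads, so their number says nothing of the other members. Values are the log2 fold change in G9Gl minus that in S1S2. Higher in G9Gl were Acta2 (4.65), Zfp518a (2.06) and Sfxn4 (0.91). Lower in G9Gl by more than 0.8 were Cstf2t (-1.72), Add3 (-1.23), Myof (-1.11), Stx3 (-0.99) and Eef1g (-0.84). Lower by less were Cep55 (-0.73), Neat1 (-0.69), Ppp1ca (-0.65), Scd2 (-0.58), Fam111a (-0.56), Tm9sf3 (-0.50), Cfl1 (-0.48), Ddb1 (-0.47), Malat1 (-0.45), Eif3a (-0.44) and Ndufv1 (-0.40). None of these differences was tested. Groups of 3 libraries are too small for the check for a library far from the others.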

How the results depend on the processing

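The direction of the chromosome 19 medians held in every alternative run. The S1S2 median of 0.31 was 0.28 with no composition factor, 0.32 with TMM factors taken without chromosome 19, 0.32 at a minimum mean of 1 CPM and 0.30 at 20 CPM, and 0.30 to 0.32 when each library was left out in turn. The G9Gl median of -0.17 was -0.16 in DESeq2, -0.16 with DESeq2 size factors, -0.20 with no composition factor, -0.19 at 20 CPM and -0.18 to -0.17 without each library. Of the moves named, those from leaving out a library exceeded the SD of the per-library medians in some cases, and all the others exceeded it. Beyond the construction of each alternative the cause was not tested. A fold limit of 2 left 8 members higher and 5 lower in S1S2, in place of 234 and 17, and 5 higher and 7 lower in G9Gl, in place of 35 and 160. At that fold lay 3.67% of members in S1S2 and 3.39% in G9Gl, beside 4.14% and 3.67% of genes on the other chromosomes. Without each library, 212 to 236 members were higher and 13 to 18 lower in S1S2, 29 to 34 higher and 134 to 160 lower in G9Gl, 251 to 257 within the band and 45 to 49 at or below WT. The replicate numbers did not pair the libraries (correlations of deviations from the group means of 0.02, 0.02 and 0.10 for S1S2 with WT and -0.02, 0.12 and 0.02 for G9Gl with WT, and 3 of 9 libraries correlated best with their own number). With a replicate block the medians were 0.31 and -0.17, with 232 and 18 members called in S1S2, 35 and 159 in G9Gl, 254 within the band and 48 at or below WT, and among the named members the block ended the G9Gl call of Myof and gave Psat1 one in S1S2, as did leaving out S1S2 replicate 3 (log2 fold change -0.35 in place of -0.23). For the 49 named members, 728 of the S1S2 and 707 of the G9Gl values under the alternatives kept their direction and side of the threshold, 1 and 22 lost the call, 6 and 6 gained it, and none reversed. The 22 were of Vldlr, Myof, Chuk and Dpp3. Chuk lost its G9Gl call without WT replicates 1 or 3 or G9Gl replicates 2 or 3 (adjusted p at most 0.015), and Dpp3 without WT replicate 3 or G9Gl replicates 2 or 3 (at most 0.022). Counts of 10 or fewer reads, as for Smarca2 in G9Gl, limit the size of a fold change.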

Other observations

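The Ifit genes of chromosome 19, interferon-induced genes whose proteins bind foreign RNA, were left out of the members by name. Ifit1 stood at 9.52, 11.3 and 10.7 CPM in WT, 83.7, 89.7 and 98.9 CPM in S1S2 and 53.4, 36.2 and 38.8 CPM in G9Gl, by library total. Ifit2 stood at 51.7, 50.02 and 57.7 CPM in WT, 148, 148 and 160.1 CPM in S1S2 and 79.5, 69.8 and 76.7 CPM in G9Gl. For both genes every mutant library lay above every WT library. Ifit3, Ifit3b, Ifit1bl1 and Ifit1bl2 had a mean of at most 1.53 CPM in WT. With Ifit1 and Ifit2 counted as members, 236 members in place of 234 were called higher in S1S2 and 37 in place of 35 in G9Gl.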
